A study of Mus musculus with 9 samples.

Results

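IL-4 and IL-6 reach macrophages (Mϕs) through receptor chains and Janus kinases (JAKs) that other cytokines share, and the transcripts of 9 such genes were followed in mouse bone marrow (BM)-derived Mϕs by RNA-seq. The members are the receptor chains Il4ra, Il13ra1, Il2rg, Il6ra and Il6st and the kinases Jak1, Jak2, Jak3 and Tyk2. They were taken from the 53379 genes of the deposited table by their Ensembl identifiers, and all 9 were among the 12824 genes tested. BM cells of 3 C57BL/6 mice were cultured for 3 days in 10 ng/ml CSF-1, and then for 4 days in CSF-1 alone (control untreated Mϕs), in CSF-1 with 10 ng/ml IL-4, or in CSF-1 with 100 ng/ml IL-6, with 3 libraries in each of the 3 groups. No group carried an engineered allele, the animals' age is not given in the sources used here, and all 3 groups received CSF-1 throughout. Doses and times are those of the sample labels; the study's methods give another dose of IL-4, and its legends another dose and a shorter treatment.

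IL-4 binds IL-4Rα, which then recruits the common γ chain (type I receptor) or IL-13Rα1 (type II receptor, which also serves IL-13). IL-6 binds IL-6Rα, which has little signaling capacity of its own, and the complex recruits gp130, the signal-transducing chain that Il6st encodes and that the whole IL-6 family uses. The chains hold JAKs on their intracellular tails (JAK3 on the common γ chain, JAK1 on IL-4Rα and gp130, TYK2 on IL-13Rα1, JAK2 and TYK2 also on gp130), and the kinases activate STAT6 after IL-4 and STAT3 after IL-6. In Mϕs, IL-4 is known for alternative activation, and IL-6 has been described to raise the IL-4 receptor.

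The libraries held between 29988160 and 39909571 fragments. Levels are FPKM (fragments per kilobase of exon and 1000000 fragments). Setting levels of different genes side by side has a limit, since libraries also differed by exon length (below). All 10 Mϕ marker genes examined, among them Adgre1 (F4/80) and Csf1r, were detected in every library. Their summed FPKM was 19177 to 22502 in control, 7617 to 8822 in IL-4-treated and 24007 to 24625 in IL-6-treated Mϕs. Lyz2 made most of it (means of 14577, 5053 and 18488 FPKM). With IL-4, 8 of the 10 passed as lower (Adgre1 447 to 193 FPKM, Csf1r 631 to 278) and 0 as higher. The mean of Itgam went the other way (35.3 to 60.1 FPKM). With IL-6, 1 of the 10 passed as higher and 1 as lower. The treatments were visible in their usual targets: Arg1 and Retnla were 10.58 and 11.69 higher on the log2 scale in IL-4-treated Mϕs, and Socs3 was 5.12 higher in IL-6-treated Mϕs. In a bulk sample, fewer cells of a type and less RNA per cell cannot be told apart. Summed FPKM of 9 neutrophil genes ranged from 4943 to 8718 in control, from 2210 to 4140 in IL-4-treated and from 8082 to 11216 in IL-6-treated Mϕs, with none of the 9 at 0. S100a8 and S100a9 made most of that sum (means of 1648.5 and 3973 FPKM in control). With IL-6, 1 of the 9 passed as higher and 0 as lower, and the mean of Retnlg was lower (284 to 152 FPKM). The sum of 8 mast cell, basophil and eosinophil genes was 72.3 to 166, 44.6 to 67.5 and 20.2 to 34.9 in the same order, with Mcpt4 at 0 throughout. Prg2 carried that sum (120 FPKM in control and 14.5 with IL-4), whereas 4 of the 7 tested genes of this list were higher with IL-4, among them Mcpt8 (3.70 to 18.6 FPKM) and Fcer1a (0.834 to 5.31). The sum of 14 T, NK and B cell genes was 29.2 to 54.8, 29.7 to 39.7 and 21.7 to 36.6. Their part in the results was not tested.

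The libraries also differed in ways the groups do not explain. In IL-4 #3, the 3202 tested genes with the longest exons had a median 0.97 below the other IL-4 libraries on the log2 scale. The 3203 with the shortest had a median 0.39 above. The controls showed smaller trends, with the longest genes at a median 0.35 above the other controls in Control #1 and 0.31 below in Control #2. Leaving out IL-4 #3 does not remove the trends of the controls. Transcripts of 14 intestinal genes gave 20.6 to 28.7 of every 1000000 fragments in the 3 control libraries and in IL-4 #1, but 0.099 to 0.245 in the remaining 5, so that the libraries fall into 2 sets, and set and IL-6 treatment cannot be told apart in IL-6 against control. Results are therefore also given without IL-4 #3 and from a fit that adds the set (the set-adjusted fit). There the IL-4 effect is IL-4 #1 against the controls. IL-6 against IL-4 rests on the IL-6 libraries and IL-4 #2 and #3, and IL-6 against control is the sum of both. The set term is the difference of IL-4 #2 and #3 from IL-4 #1, so it also takes in the exon length trend of IL-4 #3. Set-adjusted values of IL-6 against control carry that trend as well.

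With IL-4, transcripts of Il4ra, Il13ra1, Il2rg, Il6ra and Jak3 fell and those of Il6st and Jak2 rose, so that 7 of 9 passed an adjusted p of 0.05 (limma, Benjamini-Hochberg over all tested genes) where 24.8% of all tested genes did. With IL-6, Il4ra, Il2rg and Jak3 rose, which are 3 of 9 against 8.40% of all tested genes. IL-6-treated Mϕs exceeded IL-4-treated Mϕs in Il4ra, Il13ra1, Il2rg, Jak3 and Il6ra and had less Il6st, 6 of 9 against 34.1%. The groups did not overlap for 7, 5 and 8 members in these 3 comparisons, where 40.3%, 43.2% and 56.9% of all tested genes did not. Asking also for a log2 fold change of 1 in size left 4, 3 and 6 members, beside 13.9%, 5.38% and 20.4% of all tested genes. The members' log2 fold changes had medians of -0.63 with IL-4, 0.85 with IL-6 and 1.16 for IL-6 against IL-4, beside -0.20, -0.0044 and 0.22 over all tested genes. After rescaling each library by its median ratio, which brought the medians over all genes to -0.01, -0.01 and 0.02, the members' medians were -0.43, 0.84 and 0.96. The comparisons share libraries (the controls, or the IL-4 libraries), so their values stand side by side and are not independent.

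**Figure D1:**
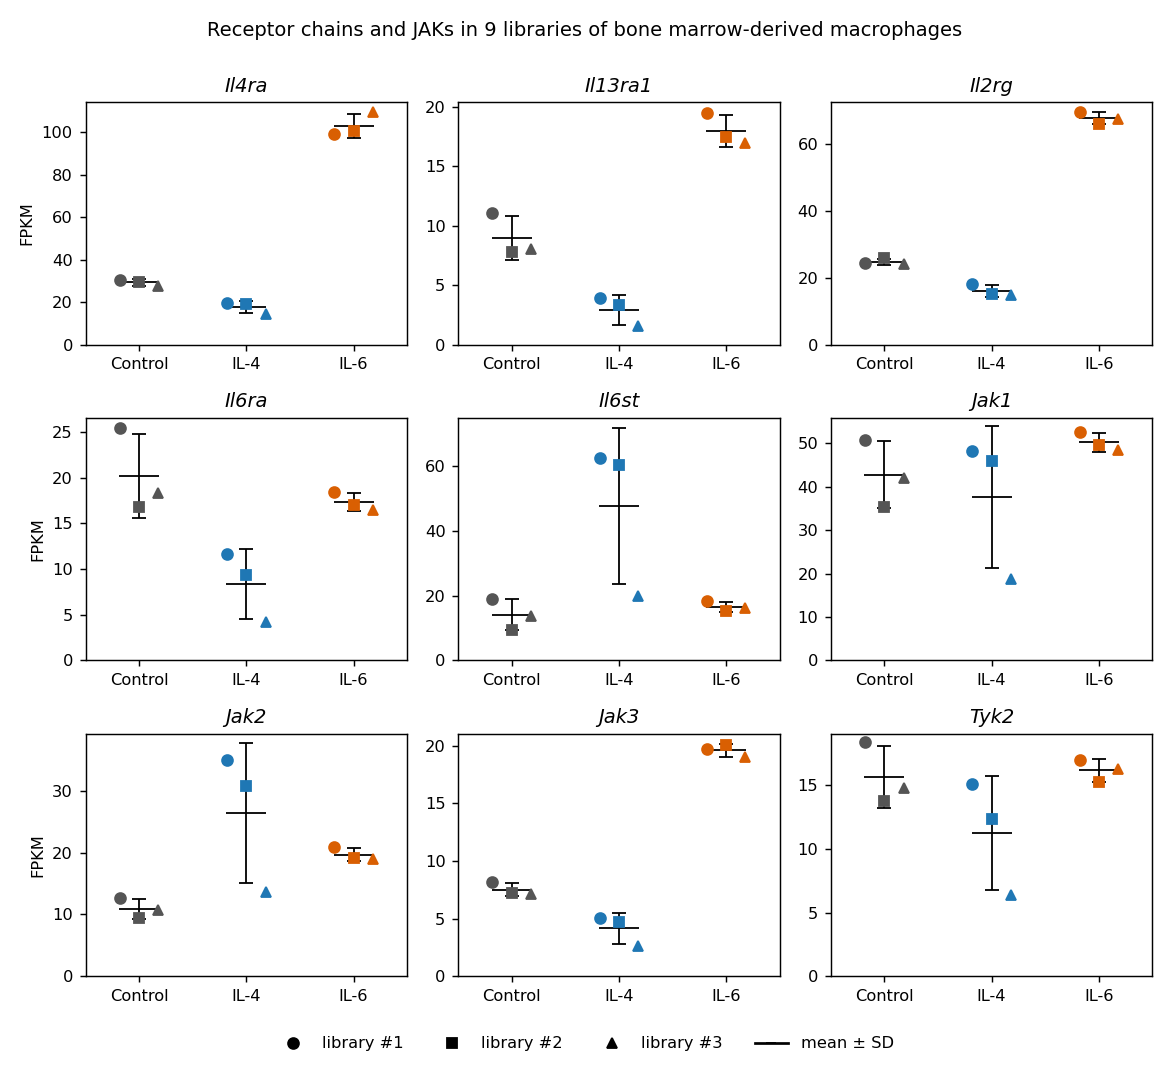
FPKM of the 5 receptor chains and 4 JAKs in each library, with a linear axis from 0 in each panel; circles, squares and triangles are libraries #1, #2 and #3 of control (grey), IL-4-treated (blue) and IL-6-treated (orange) Mϕs, and black lines give the mean ± SD (n = 3). Il4ra, Il2rg and Jak3 lie highest in all 3 IL-6 libraries, Il6st lies highest in IL-4 #1 and #2, and IL-4 #3 is the lowest IL-4 library in each panel.

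To show the DNA in front of genes that moved in different directions, the 250 bases before the RefSeq start (build GRCm38.p6) of Il13ra1, Il2rg and Il6st are printed, from 6 members whose window lies wholly before the gene's start in the GENCODE M21 annotation as well. The windows are chrX:36111858-36112107 (forward strand), chrX:101268256-101268505 (reverse strand) and chr13:112463820-112464069 (forward strand). Capitals mark GGAA or its reverse complement TTCC, the core letters that ETS factors such as PU.1 recognise.
Il13ra1: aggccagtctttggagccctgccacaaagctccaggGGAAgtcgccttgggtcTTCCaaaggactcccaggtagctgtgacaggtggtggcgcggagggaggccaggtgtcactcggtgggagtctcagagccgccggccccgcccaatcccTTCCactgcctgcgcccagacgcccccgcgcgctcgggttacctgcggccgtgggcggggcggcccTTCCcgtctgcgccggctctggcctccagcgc
Il2rg: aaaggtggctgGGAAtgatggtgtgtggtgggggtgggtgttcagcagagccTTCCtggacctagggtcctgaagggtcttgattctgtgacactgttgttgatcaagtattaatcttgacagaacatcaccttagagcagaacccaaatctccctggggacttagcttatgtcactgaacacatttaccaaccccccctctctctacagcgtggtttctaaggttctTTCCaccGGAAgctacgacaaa
Il6st: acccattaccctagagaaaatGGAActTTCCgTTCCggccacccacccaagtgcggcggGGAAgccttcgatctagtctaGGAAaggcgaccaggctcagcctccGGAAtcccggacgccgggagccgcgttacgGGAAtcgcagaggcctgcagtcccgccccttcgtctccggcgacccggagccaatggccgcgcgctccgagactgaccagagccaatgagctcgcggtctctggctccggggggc
STAT sites were searched as TTCNNNGAA and as the same flanking letters with 4 bases between them, both of which read alike on either strand, in the 300 bases from 250 before to 50 after the start. None of the 9 members' windows held these letters, while 14.6% of 32817 RefSeq promoters held either motif (8.29% and 6.94%). GGAA on either strand, chosen after that search, occurred 4 times in the Il13ra1 and the Il2rg window and 7 times in the Il6st window. In the other members it occurred 2 (Il4ra), 3 (Il6ra), 1 (Jak1), 2 (Jak2), 3 (Jak3) and 5 times (Tyk2). Jak2 rose with IL-4 as Il6st did, and Tyk2 was not called. Of all promoters, 93.4% held GGAA on either strand in these 250 bases, with a median of 3 matches. A link between these counts and the direction of change was not tested.

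Among the IL-4 receptor chains, Il4ra (ENSMUSG00000030748.9, GRCm38 chromosome 7, 125552120 to 125579474, forward strand), which encodes the ligand-binding chain of both receptor types, changed most with IL-6. It measured 30.6, 29.7 and 27.6 FPKM in control Mϕs #1 to #3, 19.6, 19.1 and 14.3 in IL-4-treated Mϕs, and 99.0, 100.8 and 109.3 in IL-6-treated Mϕs. Each IL-6 library was above, and each IL-4 library below, every control. Means were 29.3 ± 1.55, 17.7 ± 2.94 and 103 ± 5.52 FPKM (SD, n = 3), that is 3.52 times the control level with IL-6 (log2 fold change 1.81 ± 0.14 SE, limma adjusted p = 0.000215) and 0.605 times with IL-4 (-0.73 ± 0.14, adjusted p = 0.00604). IL-6-treated exceeded IL-4-treated Mϕs 5.82-fold (2.55 ± 0.14, adjusted p = 6.2e-06). The increase with IL-6 held in the set-adjusted fit (2.06, adjusted p = 0.0131), whereas the decrease with IL-4 was -0.57 there and missed the threshold (adjusted p = 0.103). Without IL-4 #3 it was -0.59 (adjusted p = 0.00103).

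Il2rg (ENSMUSG00000031304.18, chromosome X, 101264378 to 101268255, reverse strand) encodes the common γ chain, shared by the receptors of IL-2, IL-4, IL-7, IL-9, IL-15 and IL-21. Its levels were 24.4, 25.8 and 24.0 FPKM in control, 18.1, 15.1 and 14.9 in IL-4-treated, and 69.7, 66.0 and 67.5 in IL-6-treated Mϕs. The 3 groups did not overlap, and the spread within each was small beside the distance between them. The mean of 67.8 ± 1.86 FPKM with IL-6 was 2.74 times the control mean of 24.8 ± 0.939 (1.45 ± 0.11, limma adjusted p = 0.000215). With IL-4 it was 16.1 ± 1.79 FPKM (-0.63 ± 0.11, adjusted p = 0.00419). In the set-adjusted fit, the increase with IL-6 was 1.72 (adjusted p = 0.00649) and the decrease with IL-4 -0.45 (adjusted p = 0.0753). Gm20489, annotated on the same strand and sharing 728 exonic bases with Il2rg, was at 0 in 8 libraries and at 0.024 FPKM in IL-6 #3.

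Il13ra1 (ENSMUSG00000017057.9, chromosome X, 36112110 to 36171259, forward strand), the chain that completes the type II receptor, showed the largest decrease of the members with IL-4. Control Mϕs had 11.1, 7.77 and 8.0 FPKM, IL-4-treated Mϕs 3.90, 3.37 and 1.53, and IL-6-treated Mϕs 19.5, 17.4 and 17.0. IL-4 thus left 2.93 ± 1.24 FPKM of 8.95 ± 1.84 (-1.66 ± 0.32, limma adjusted p = 0.00695), with IL-4 #3 the lowest library. The mean of 17.9 ± 1.32 FPKM with IL-6 was 2.01 times the control mean, but although the libraries did not overlap, the difference missed the threshold (1.01 ± 0.32, 95% confidence interval 0.28 to 1.75, adjusted p = 0.104). The 3 groups share an estimate of the spread, and without IL-4 #3 the same 1.01 passed (adjusted p = 0.00235). IL-6-treated exceeded IL-4-treated Mϕs 6.12-fold (2.67 ± 0.32, adjusted p = 0.000472). In the set-adjusted fit the decrease with IL-4 was -1.16 (adjusted p = 0.123) and the difference with IL-6 1.76 (adjusted p = 0.158).

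Turning to the IL-6 receptor, Il6ra (ENSMUSG00000027947.11, chromosome 3, 89864059 to 89913196, reverse strand), the ligand-binding chain, was lower in IL-4-treated Mϕs. Levels were 25.5, 16.8 and 18.4 FPKM in control, 11.7, 9.32 and 4.18 in IL-4-treated, and 18.4, 17.1 and 16.5 in IL-6-treated Mϕs. All IL-4 libraries were below the lowest of the other 6, whereas control and IL-6 libraries overlapped. The decrease with IL-4 was 0.415 times the control mean of 20.2 ± 4.62 FPKM (-1.36 ± 0.35, limma adjusted p = 0.0234), but it was -0.92 without IL-4 #3 (adjusted p = 0.00535) and -0.76 in the set-adjusted fit (adjusted p = 0.334). The log2 fold change of Il6ra with IL-6 was -0.20 (interval -1.0 to 0.60, limma adjusted p = 0.794). In the set-adjusted fit, whose set term takes in the low IL-4 #3, it was 0.69 (interval -0.55 to 1.94). Its direction thus depended on the fit. Against IL-4-treated Mϕs, IL-6-treated Mϕs had 2.06 times as much Il6ra (1.16 ± 0.35, limma adjusted p = 0.0342), and without IL-4 #3 this was 0.73 (adjusted p = 0.0137). Omitting each library in turn, the call was made in 5 of 9 fits.

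Il6st (ENSMUSG00000021756.12, chromosome 13, 112464070 to 112510086, forward strand), encoding gp130, moved the other way. It stood at 19.1, 9.49 and 13.8 FPKM in control, at 62.5, 60.3 and 19.9 in IL-4-treated, and at 18.3, 15.3 and 16.1 in IL-6-treated Mϕs. IL-4 #1 and #2 were far above all other libraries, and IL-4 #3 lay just above the highest control. The mean with IL-4 was 3.37 times that of control (47.6 ± 24.0 against 14.1 ± 4.79 FPKM; 1.63 ± 0.44, limma adjusted p = 0.0289). Without IL-4 #3 the log2 fold change was 2.17 (adjusted p = 0.00041), and in the set-adjusted fit it was 2.19 and missed the threshold (adjusted p = 0.0587). Omitting each library in turn, the call was made in 3 of 9 fits, with an adjusted p between 0.00041 and 0.0977. With IL-6 the change was 0.28 (interval -0.73 to 1.29, adjusted p = 0.768), and 1.13 in the set-adjusted fit (adjusted p = 0.344). IL-6-treated Mϕs had 0.348 times the level of IL-4-treated Mϕs (-1.35 ± 0.44, limma adjusted p = 0.0461). This call was lost in the set-adjusted fit (-1.06, adjusted p = 0.0997). Omitting each library in turn, it was made in 1 of 9 fits, with an adjusted p between 0.00065 and 0.118.

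The balance between the binding and the signaling chain of the IL-6 receptor differed between groups in each library. Per library, Il6ra to Il6st was 1.34, 1.77 and 1.33 in control, 0.187, 0.154 and 0.21 in IL-4-treated, and 1.01, 1.11 and 1.03 in IL-6-treated Mϕs. Means were 1.48 ± 0.253, 0.184 ± 0.0282 and 1.05 ± 0.0556 (SD, n = 3), and IL-4 #3 stood close to the other IL-4 libraries although both of its levels were low. The ratio of Il4ra to Il13ra1 was 2.76, 3.82 and 3.44 in control, 5.04, 5.68 and 9.35 in IL-4-treated and 5.09, 5.78 and 6.44 in IL-6-treated Mϕs. Thus both cytokine groups lay above control, with IL-4 #3 highest. For the chains that complete the 2 types of IL-4 receptor, Il2rg to Il13ra1 was 2.21, 3.32 and 3.00 in control, 4.64, 4.48 and 9.74 in IL-4-treated and 3.58, 3.79 and 3.98 in IL-6-treated Mϕs. Here too the 3 control libraries were the lowest, and IL-4 #3 stood apart. These ratios were not tested.

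**Figure D2:**
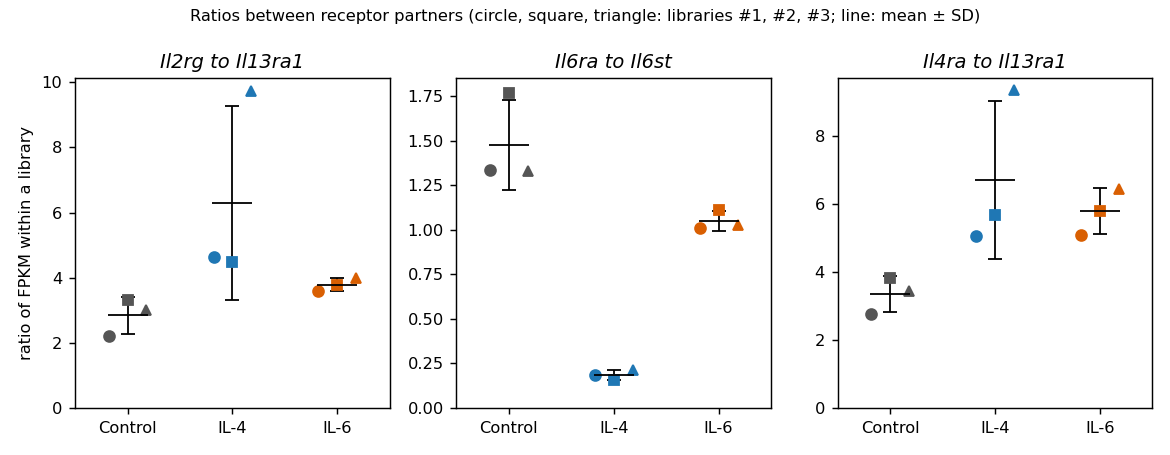
Ratio of the FPKM of receptor partners within each library, with linear axes from 0, for control (grey), IL-4-treated (blue) and IL-6-treated (orange) Mϕs; circles, squares and triangles are libraries #1, #2 and #3, and black lines the mean ± SD (n = 3). Il6ra to Il6st averages 0.184 with IL-4 against 1.48 in control, and the triangle of IL-4 #3 lies far above its group in the 2 ratios to Il13ra1.

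Of the kinases, Jak3 (ENSMUSG00000031805.17, chromosome 8, 71676296 to 71690575, forward strand), the partner of the common γ chain, had levels in the same order as Il2rg. It measured 8.17, 7.18 and 7.18 FPKM in control, 5.07, 4.75 and 2.64 in IL-4-treated, and 19.7, 20.1 and 19.0 in IL-6-treated Mϕs, without overlap between groups. With IL-6 the mean of 19.6 ± 0.542 FPKM was 2.61 times the control mean of 7.51 ± 0.573 (1.37 ± 0.23, limma adjusted p = 0.00896), and in the set-adjusted fit the difference was 1.88 and missed the threshold (adjusted p = 0.0682). With IL-4 it was 0.553 times (-0.89 ± 0.23, adjusted p = 0.0237), -0.60 without IL-4 #3 (adjusted p = 0.00157) and -0.55 in the set-adjusted fit (adjusted p = 0.316). IL-6-treated exceeded IL-4-treated Mϕs 4.72-fold (2.27 ± 0.23, adjusted p = 0.000189). Insl3, on the same strand, shares 404 exonic bases with Jak3 and ranged from 0.121 to 1.45 FPKM in control and IL-4-treated and from 2.87 to 3.54 in IL-6-treated Mϕs, so the reads of the shared bases are uncertain.

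Jak2 (ENSMUSG00000024789.12, chromosome 19, 29251828 to 29313080, forward strand), used by gp130 and by receptors of hormones and growth factors, was the kinase that rose with IL-4. Levels were 12.7, 9.49 and 10.7 FPKM in control, 35.0, 30.8 and 13.6 in IL-4-treated, and 20.8, 19.1 and 19.0 in IL-6-treated Mϕs. All 6 libraries of treated Mϕs were above the controls, although IL-4 #3 exceeded the highest control only slightly. The increase with IL-4 (2.42-fold; 1.16 ± 0.32, limma adjusted p = 0.0313) was 1.58 without IL-4 #3 (adjusted p = 7.19e-05), the only 1 of the 9 fits leaving out a library in which it was called, and it was the only IL-4 call among the members that held in the set-adjusted fit (1.68, adjusted p = 0.0395). With IL-6 the mean was 1.79 times that of control (0.85 ± 0.32, interval 0.11 to 1.58), which missed the threshold (adjusted p = 0.174) but passed without IL-4 #3 (adjusted p = 0.00183), and it was 1.61 in the set-adjusted fit (adjusted p = 0.184). IL-6 against IL-4 was -0.32 (adjusted p = 0.446), and -0.74 without IL-4 #3 (adjusted p = 0.00271).

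Jak1 (ENSMUSG00000028530.14, chromosome 4, 101152367 to 101265282, reverse strand) serves both the IL-4 and the IL-6 receptor, and Tyk2 (ENSMUSG00000032175.11, chromosome 9, 21104068 to 21131243, reverse strand) is the partner of IL-13Rα1 and one of the kinases on gp130. Jak1 was at 50.8, 35.4 and 41.9 FPKM in control, 48.3, 46.0 and 18.8 in IL-4-treated, and 52.7, 49.5 and 48.4 in IL-6-treated Mϕs. Tyk2 was at 18.4, 13.7 and 14.8, at 15.1, 12.3 and 6.37, and at 17.0, 15.2 and 16.3 FPKM. For both genes, control libraries overlapped with those of either cytokine, and IL-4 #3 was the lowest library. None of the 6 comparisons of Jak1 and Tyk2 passed the threshold (limma; 0 at an unadjusted p under 0.05, and 0 by voom on recovered fragments). With IL-4 the changes were -0.28 (interval -1.06 to 0.49, limma adjusted p = 0.572) and -0.55 (-1.22 to 0.12, adjusted p = 0.212), and with IL-6 0.25 (-0.53 to 1.02, adjusted p = 0.733) and 0.06 (-0.61 to 0.72, adjusted p = 0.93). In the set-adjusted fit, IL-4 gave 0.19 for Jak1 (adjusted p = 0.88) and -0.04 for Tyk2 (adjusted p = 0.97), so the sign of Jak1 turned, while IL-6 gave 0.96 (adjusted p = 0.31) and 0.82 (adjusted p = 0.297). These intervals still allow changes of the size of several of the calls. IL-6 against IL-4 gave 0.53 for Jak1 (adjusted p = 0.236) and 0.61 for Tyk2 (adjusted p = 0.134); Tyk2 passed in the set-adjusted fit (0.86, adjusted p = 0.0413).

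**Figure D3:**
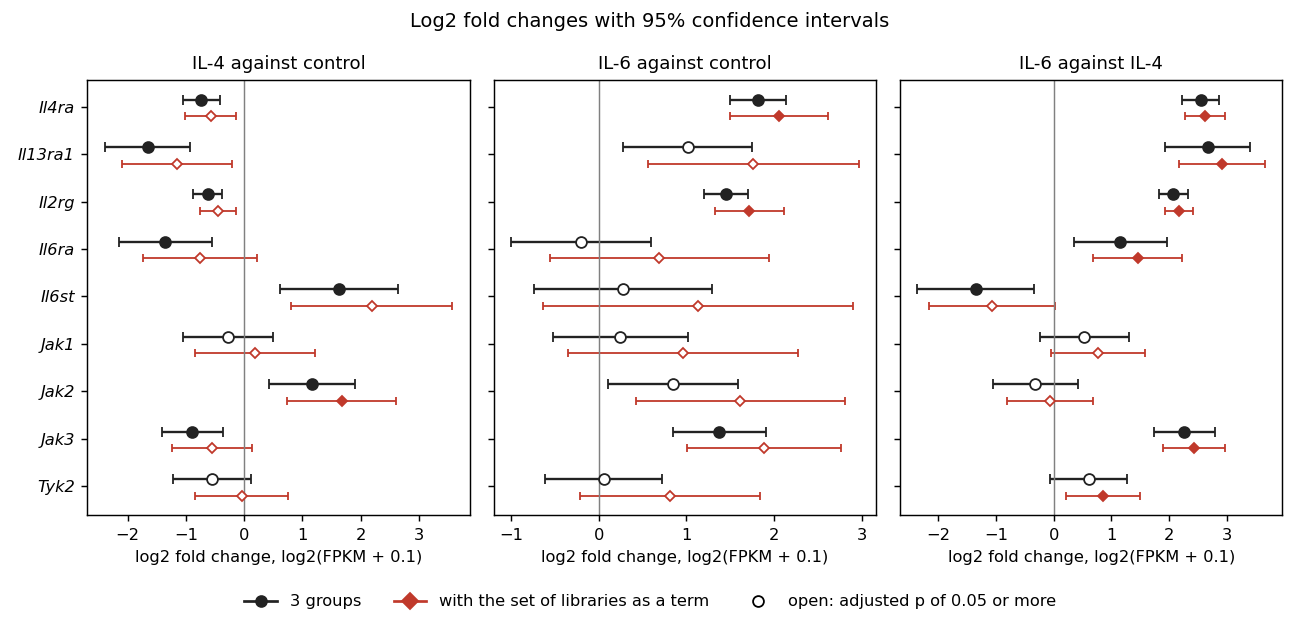
Log2 fold changes on the log2(FPKM + 0.1) scale with 95% confidence intervals for the 9 members in 3 comparisons; black circles are the fit of 3 groups, red diamonds the fit that adds the set of libraries, and open symbols have an adjusted p of 0.05 or more. In the set-adjusted fit, 1, 2 and 6 members are called in the 3 panels in place of 7, 3 and 6, and Il4ra and Il2rg stay past the threshold for IL-6.

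The order of the members by level also differed. In control Mϕs, Jak1 (42.7 ± 7.73 FPKM) was highest and did not overlap with Il4ra, which lay above Il2rg, while from Il2rg down to Jak3 (7.51 FPKM) each neighbor overlapped with the next. In IL-4-treated Mϕs, Il6st, Jak1 and Jak2 led with 47.6, 37.7 and 26.5 FPKM, Il13ra1 was last, and each neighbor in the order overlapped with the next. In IL-6-treated Mϕs, Il4ra (103 FPKM), Il2rg (67.8) and Jak1 (50.2 ± 2.23) stood apart from each other and from the rest, and the remaining 6 lay between 16.2 and 19.6 FPKM with overlapping neighbors. With the exact permutation test over libraries (two-sided), groups that did not overlap gave p = 0.1, the smallest that 3 against 3 can give.

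Genes whose log2 values ran most like 2 of the members over the 9 libraries were taken by Pearson's r. For Il13ra1, whose IL-4 call was largest in size on the log2 scale of the fit with all libraries (-1.66, against 1.63 for Il6st, which was larger without IL-4 #3), they were Parp8, Ppm1h, Ptpn1, Tnfaip2 and Mllt6 (r from 0.996 to 0.998). Ptpn1, which encodes the JAK phosphatase PTP1B, averaged 53.1 FPKM in control Mϕs, 32.1 with IL-4 and 75.7 with IL-6. For Il4ra, which had the largest IL-6 call, they were Fgr, Emb, Art2b, Tnfsf14 and Il2rg (r from 0.994 to 0.998). Thus Il2rg, at 24.8, 16.1 and 67.8 FPKM, was itself among the 5 genes nearest to Il4ra. These values describe 9 libraries that share 3 group levels, and carry no test.

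Around these receptors, 62 of 75 listed pathway genes were tested. With IL-4, 10 rose and 20 fell (limma adjusted p under 0.05), where 8.55% and 16.3% of all tested genes did, and with IL-6, 10 rose and 2 fell, beside 4.58% and 3.82%. Medians of the log2 fold changes were -0.31 and 0.27. In the set-adjusted fit, fewer falls with IL-4 and fewer rises with IL-6 were called. There the IL-4 effect rests on IL-4 #1 alone, and shares by direction over all tested genes are not given. The balance of rises and falls is therefore not read from that fit. Of 5 tested ligands, Ebi3 (a subunit of IL-27 and IL-35), Osm (oncostatin M, which signals through gp130) and Il4 fell with IL-4, by 2.65, 1.59 and 1.47 on the log2 scale, and Clcf1, another gp130 cytokine, rose by 1.51. Osm measured 7.48, 7.37 and 7.49 FPKM in control and 2.38, 2.41 and 2.4 in IL-4-treated Mϕs, without overlap. With IL-6, Ebi3 was the only ligand called (-0.66, adjusted p = 0.046), and it kept this call in 2 of 9 fits leaving out a library.

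Of 3 tested chains that otherwise pair with gp130 or IL-6 family cytokines, 2 rose with IL-4 (limma), and with IL-6 0 passed (2 at an unadjusted p under 0.05, and 0 by voom). Il27ra, which joins gp130 to bind IL-27, rose from 0.295, 0.429 and 0.53 FPKM to 2.51, 2.44 and 2.14 (2.27, limma adjusted p = 0.000326), and Il11ra1, which joins gp130 to bind IL-11, rose by 1.98 (adjusted p = 0.00407). Both are thus higher in the group in which Il6st was higher, but Il11ra1 was highest in IL-4 #3 (75.8 FPKM, against 30.2 and 35.8 in the other IL-4 libraries), its reads are uncertain because of the near-identical copy Il11ra2, and its call was lost in the set-adjusted fit (adjusted p = 0.0782). The list of partners of the common γ chain had 5 tested genes, among them Crlf2, which is not such a partner. Il2rb, a signaling chain for IL-2 and IL-15, rose with IL-4 from 0.185, 0.108 and 0.164 FPKM to 4.21, 3.14 and 1.11 (3.36, limma adjusted p = 0.00192). Il21r had the order of Il2rg: 21.6, 21.5 and 21.4 FPKM in control, 15.6, 12.5 and 7.76 in IL-4-treated, and 51.2, 51.3 and 55.2 in IL-6-treated Mϕs (1.28 with IL-6, adjusted p = 0.011; -0.90 with IL-4, adjusted p = 0.021). Il7r fell with IL-6 (-1.19, adjusted p = 0.0272) from 47.9, 38.1 and 54.5 to 20.8, 20.7 and 19.1 FPKM, so partners of the common γ chain changed in both directions. Il21r kept its IL-6 call in 7 of 9 fits leaving out a library, and Il7r in 4.

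Of 15 tested other receptors that use these JAKs, 9 fell and 2 rose with IL-4 (4 and 2 in the set-adjusted fit). Among them Epor (erythropoietin receptor), Csf3r (G-CSF receptor) and Il10ra (IL-10 receptor) fell by 2.97, 2.11 and 1.92. With IL-6, 5 rose (1 in the set-adjusted fit), among them Csf2rb (1.40) and Csf2rb2 (1.08), which are close paralogs whose reads may not be separable. Csf2rb kept its IL-6 call in 9 of 9 fits leaving out a library, and Csf2rb2 in 4. Csf3r is also used by neutrophils, whose markers fell with IL-4 for 8 of 9 genes, and the part of those cells was not tested.

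Downstream, none of the 7 STATs passed with IL-4 (limma; 1 at an unadjusted p under 0.05, and 0 by voom on recovered fragments), although the set-adjusted fit called 1 of them. By contrast, Stat4 (1.57, adjusted p = 0.00488) and Stat3 (1.29, adjusted p = 0.0274) rose with IL-6. Stat4 kept this call in 9 of 9 fits leaving out a library, and Stat3 in 3. Stat3, the main STAT of gp130, went from 13.3, 10.5 and 11.6 FPKM in control to 29.7, 27.6 and 29.0 in IL-6-treated Mϕs. Among 18 inhibitors, 4 rose and 4 fell with IL-4, and the set-adjusted fit called 4, all of them higher. Socs1, Cish and Socs2, feedback inhibitors of JAK-STAT signaling, rose by 4.20, 3.95 and 2.91, and Pias3, an inhibitor of STAT3, fell by 1.22. With IL-6, Socs3, which binds gp130, was the only inhibitor that passed (5.12, adjusted p = 3.02e-05), and it went from 2.91, 2.28 and 1.61 to 74.7, 80.9 and 85.5 FPKM. Of 9 adaptors and proteases, Gab1 fell with IL-4 (-1.03) and rose with IL-6 (1.16), and Adam17, a protease that sheds IL-6Rα, fell with IL-4 by 1.07. In the set-adjusted fit, Stat3 (1.95, adjusted p = 0.0903), Stat4 (1.95, adjusted p = 0.0722), Csf2rb, Csf2rb2, Il7r, Ebi3 and Gab1 missed the threshold for IL-6, and Il21r, Pias3, Adam17, Gab1 and Il11ra1 missed it for IL-4.

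**Figure D4:**
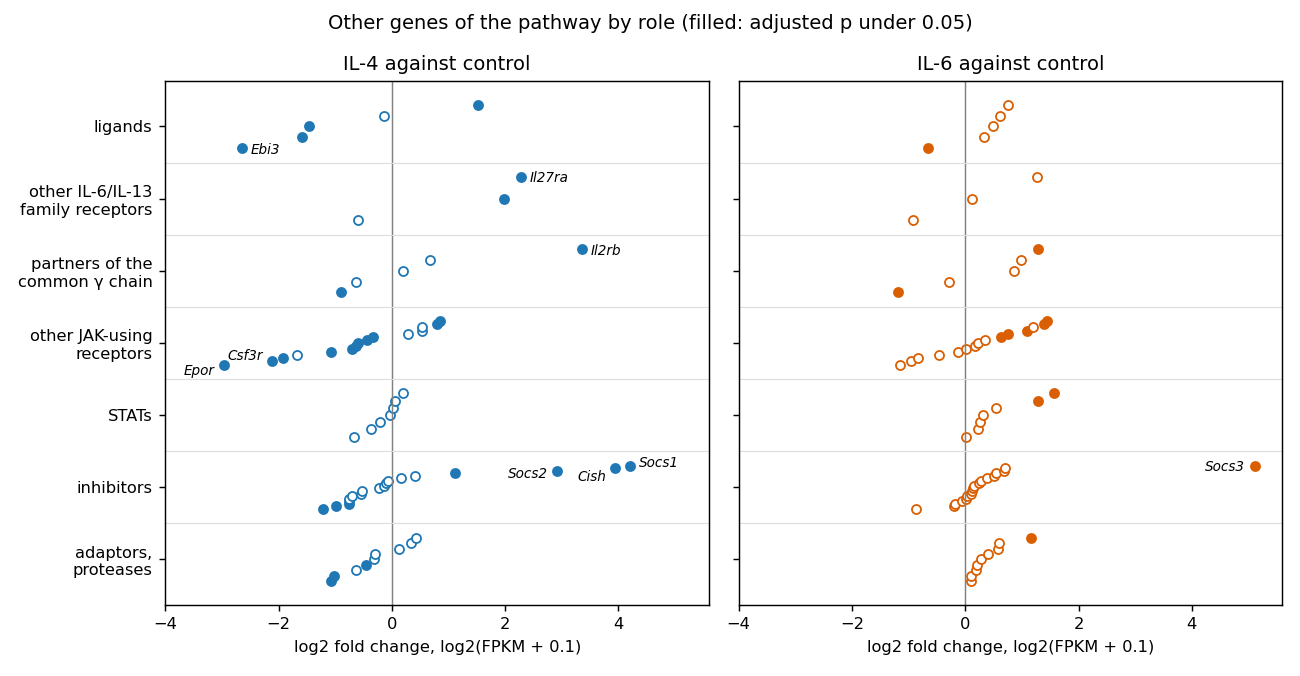
Log2 fold changes on the log2(FPKM + 0.1) scale of the 62 tested pathway genes other than the members, by role, for IL-4 (left, blue) and IL-6 (right, orange) against control; each point is a gene, filled where its adjusted p was under 0.05, and genes called with a change of at least 2 are named. Socs3 lies far right with IL-6, and Socs1, Cish, Il2rb, Socs2 and Il27ra lie far right with IL-4. The row of partners of the common γ chain also holds Crlf2, which is not such a partner.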

How the data were processed

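Poly(A) RNA of 9 cultures was sequenced with a stranded kit. The authors deposited FPKM values, with STAR 2.4.2a, Cufflinks 2.2.1 and GRCm38 named in the submitters' processing notes. FPKM steps matched whole fragments over GENCODE M21 exon lengths (100.0% of values within 0.05), from which depth was read, and 50604 identifiers (94.8%) matched M21 with their version. Gene coordinates are those of M21, which holds a later version of the Jak2 identifier. Whether counting used strand is not given in the sources used here. The 12824 genes whose FPKM averaged 0.5 or more were fitted as log2(FPKM + 0.1) with limma 3.58.1 (R 4.3.3; 3 groups, trend and robust options), two-sided, with Benjamini-Hochberg adjustment over all tested genes. Fold changes on this scale understate changes of low genes. Calls are genes whose adjusted p was under 0.05. The members and lists were chosen with earlier results of these data known. Named genes were the 9 members, Arg1, Retnla and Socs3, pathway genes called and changed by 1 or more on the log2 scale (up to 4 per list and comparison), and the 5 genes most like a member. Some genes of the pathway lists are not reported here. The design text names 3 mice and the libraries are numbered 1 to 3 in each group, but the sources used here do not say that a number marks the same mouse in every group, so the fit has no block for it. Recovered fragments were fitted with voom as an alternative. The fit was tested on simulated data. Whether the libraries of a group are separate animals is not stated for each, so p-values measure the spread between libraries. RefSeq promoters matched 9 of 9 members. Proteins were not analysed here.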

Additional observations from a re-analysis of the deposited data

How the results depend on the processing

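Adjusted p-values are from limma with Benjamini-Hochberg adjustment. With IL-4, 7 members were called, and 3 were when the fit held only the groups compared, 1 in the set-adjusted fit, and 4 when a log2 fold change of at least 1 was also required. The same 7 were called by voom, after median-ratio rescaling and after quantile normalization. They were also called when each library's trend with exon length was removed, an alternative chosen after seeing the data. When genes averaging under 0.5 FPKM were tested as well, 5 members were called with IL-4. With IL-6, 3 were called, and 5 when the fit held only the groups compared or when the length trend was removed. For IL-6 against IL-4, no setting moved the count of 6 members called by more than 1.5 times, but the members behind the count differed between settings. Leaving out each library in turn gave 3 to 7, 3 to 5 and 4 to 7 members called. Il4ra, Il2rg and Il13ra1 kept their IL-4 call in all 9 of these fits, Il6ra in 7, Jak3 in 6, Il6st in 3 and Jak2 in 1. Il4ra, Il2rg and Jak3 kept their IL-6 call in all 9. For IL-6 against IL-4, Il4ra, Il13ra1, Il2rg and Jak3 kept their call in all 9, Il6ra in 5 and Il6st in 1. Of all genes, 3186 were called with IL-4, and 1839 among genes whose FPKM averaged 5 or more, 1796 with only the groups compared, 1367 in the set-adjusted fit, 1784 with the added fold change, and 2026 to 4848 leaving out a library. With IL-6, 1077 were called, and in the same order 628, 2822, 187, 690 and 462 to 3168, and 1811 with the length trend removed. IL-6 against IL-4 called 4375, and 2479 among genes averaging 5 FPKM or more, 2613 with the added fold change and 2911 to 5544 leaving out a library. Leaving out a library, the means of the 3 ratios ranged over 1.33 to 1.55, 0.171 to 0.199 and 1.02 to 1.07 for Il6ra to Il6st (control, then IL-4, then IL-6), 2.61 to 3.16, 4.56 to 7.19 and 3.69 to 3.88 for Il2rg to Il13ra1, and 3.10 to 3.63, 5.36 to 7.52 and 5.44 to 6.11 for Il4ra to Il13ra1. The fit with the replicate number as a block called 7, 3 and 6 members and 3023, 908 and 4463 genes, and it changed no call of a member; deviations of libraries with the same number correlated from -0.415 to 0.521, and a library correlated best with its own number in 11 of 18 comparisons with another group. Stat3 with IL-4 changed from -0.02 (not called) to 0.27 with the length trend removed (adjusted p = 0.0312). The causes were not tested. Members rested on at least 227 fragments in each library, and the spread between 3 libraries limits their tests.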
